A study of Homo sapiens with 19 samples.

Results

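Histone H3 acetylated at lysine 27 (H3K27ac) marks active promoters and enhancers. It was examined in 4 human leukaemia cell lines at 7 genes of the red cell membrane, erythropoietin signalling, transferrin uptake and heme supply. The genes were GYPB, ANK1, EPB42, EPOR, TFRC, ALAS2 and SLC25A37, taken by symbol from GENCODE v44, and all 7 were found among its 20033 protein-coding genes on chromosomes 1 to 22, X and Y. For each gene, peaks were collected at its transcription start sites (TSSs), meaning within 500 bp of the start of any annotated transcript, and within 50 kb of the gene body. Each peak has a width and a fold enrichment, which is the mean of its signal over the local background as the peak caller reported it. A TSS peak was present at all 7 genes in K562 and at 3 of 7 in each of the other lines, and 4 genes (GYPB, ANK1, EPB42 and ALAS2) carried one in K562 and in no other line.

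The study profiled chromatin in leukaemia cell lines to follow enhancers made from endogenous retroviral repeats, and 1 H3K27ac peak list from each of 4 lines was used. HL-60 and Molm13 are acute myeloid leukaemia (AML) lines that were grown untransduced and untreated. OCI-AML3, also an AML line, and K562, a chronic myelogenous leukaemia line, both carried a lentiviral dCas9-KRAB-mCherry repressor and an empty sgRNA vector with a BFP reporter, and were sorted on both fluorescent proteins. These 2 lines were the controls of a CRISPR interference experiment, so their chromatin came from cells expressing a repressor without a guide. With 1 library per line there was no replicate, no error of any value could be given, and no difference between lines was tested.

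Red cell precursors build a flexible membrane on a spectrin skeleton, and they take up large amounts of iron to make heme for haemoglobin. Glycophorin B (GYPB) is a sialoglycoprotein of the red cell surface, ankyrin (ANK1) ties the spectrin skeleton to the membrane, and EPB42 encodes a membrane skeleton protein that binds the anion exchanger SLC4A1 and ankyrin. EPOR is the receptor for erythropoietin, the hormone that sustains red cell precursors, and TFRC is the transferrin receptor, which brings iron into many dividing cells. ALAS2 is the erythroid enzyme for the first step of heme synthesis, and SLC25A37 (mitoferrin) carries iron into mitochondria.

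The bases upstream of the start of 5 genes are shown because the acetylation described below lies on or beside them, and because they differ widely in base composition. They are the 250 bases before each start in RefSeq (GRCh38.p14), 5′ to 3′ on the strand of the gene, and each was identical to hg38. The windows were chr4:144019381-144019630 for GYPB, chr15:43221019-43221268 for EPB42, chr19:11384315-11384564 for EPOR, chrX:55030978-55031227 for ALAS2 and chr3:196082091-196082340 for TFRC, and all lie on the minus strand. Capitals mark matches to the letters of a GATA motif (GATA with A or T before it and A or G after it) or of a CACCC motif (CCACNCCC), searched on both strands.
GYPB promoter: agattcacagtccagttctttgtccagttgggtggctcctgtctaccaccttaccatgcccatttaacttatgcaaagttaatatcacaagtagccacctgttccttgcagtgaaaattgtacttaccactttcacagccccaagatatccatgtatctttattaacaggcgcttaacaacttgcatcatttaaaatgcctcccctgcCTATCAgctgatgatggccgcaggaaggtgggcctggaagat
EPB42 promoter: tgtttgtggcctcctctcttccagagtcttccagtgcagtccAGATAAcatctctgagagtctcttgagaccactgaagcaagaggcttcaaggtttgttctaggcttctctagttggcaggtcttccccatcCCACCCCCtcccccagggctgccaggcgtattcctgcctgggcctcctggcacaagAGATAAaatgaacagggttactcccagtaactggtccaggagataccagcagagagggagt
EPOR promoter: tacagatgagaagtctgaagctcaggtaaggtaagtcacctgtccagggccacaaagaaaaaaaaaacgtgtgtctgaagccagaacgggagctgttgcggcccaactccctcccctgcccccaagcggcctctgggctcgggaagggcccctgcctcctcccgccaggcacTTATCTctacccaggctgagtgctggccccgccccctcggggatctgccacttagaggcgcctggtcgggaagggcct
ALAS2 promoter: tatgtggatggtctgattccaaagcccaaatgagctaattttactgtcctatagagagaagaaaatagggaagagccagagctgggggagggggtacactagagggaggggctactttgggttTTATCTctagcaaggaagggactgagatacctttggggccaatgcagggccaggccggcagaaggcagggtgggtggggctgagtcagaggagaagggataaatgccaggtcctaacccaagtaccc
TFRC promoter: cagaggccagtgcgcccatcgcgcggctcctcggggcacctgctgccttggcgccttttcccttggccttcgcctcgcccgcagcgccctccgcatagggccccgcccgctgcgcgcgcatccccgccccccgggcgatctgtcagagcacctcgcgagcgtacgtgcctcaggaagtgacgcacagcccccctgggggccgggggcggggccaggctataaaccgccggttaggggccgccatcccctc

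At least 1 GATA match stood in 4 of these 5 promoters, beside 8769 of 35116 RefSeq promoters of 300 bases (25%; 250 bases before and 50 after the start). The matches began at -42 in GYPB, at -208 and -61 in EPB42, at -78 in EPOR and at -127 in ALAS2, counted from the start, and the TFRC window held none. A CACCC match was present in EPB42 alone, at -117, beside 17.2% of all promoters. The G and C content of the 300 bases was 45.3% in GYPB, 52.7% in ALAS2, 54.0% in EPB42, 63.3% in EPOR and 73.3% in TFRC. The ratio of observed to expected CpG dinucleotides was 0.0458 in EPB42, 0.132 in GYPB, 0.156 in ALAS2, 0.433 in EPOR and 0.920 in TFRC. Among these 5, the 3 CpG-poorest promoters therefore belonged to genes with a TSS peak in K562 and in no other line. The CpG-rich TFRC promoter belonged to a gene with a peak at that start in every line. EPOR, at 0.433, also had a TSS peak in every line. At the EPOR start shown here, however, only K562 had a peak, and the AML lines had theirs at internal starts. No promoter value is given for ANK1, marked at a start in K562 alone, or for SLC25A37, marked in every line, so the split is incomplete. A match to these letters describes the sequence and is not a bound site.

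The 4 lists differed in length and in the size of their peaks. HL-60 had 20772 peaks on these chromosomes with a median width of 893 bp, Molm13 had 35136 with 1142 bp, OCI-AML3 had 37571 with 1282 bp, and K562 had 37424 with 1290 bp. Median fold enrichment was 3.60, 3.80, 2.95 and 2.85 in the same order, so fold enrichment is compared below by its rank within a list. The sequencing depth is unknown, and a gene without a peak in a list is not shown to lack acetylation. Of 6 erythroid and megakaryocytic marker genes, all had a TSS peak in K562, and 1, 2 and 1 had one in HL-60, Molm13 and OCI-AML3. GATA1, KLF1, TAL1 and HBG1 had one in K562 and in no other line. Of 6 myeloid markers, 3 had one in K562, against 5, 6 and 6 in the AML lines in the same order. Of 6 lymphoid markers 3, 2, 2 and 2 had a TSS peak in HL-60, Molm13, OCI-AML3 and K562, with CD3D, CD3E and BCL11B at 0 in every line, and of 6 non-blood markers 2, 2, 2 and 3.

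All 7 genes carried a TSS peak in K562, where 55.9% of protein-coding genes did. In HL-60, Molm13 and OCI-AML3, 3 of 7 genes did, beside 44.7%, 53.9% and 57.7% of all protein-coding genes. The 4 genes with a TSS peak in K562 and in no other line compare with 4.78% of all genes, and the 3 genes with one in all 4 lines (EPOR, TFRC and SLC25A37) with 40.5%. The number of genes with a peak was therefore near or below the background in the AML lines and above it in K562. The 7 genes were chosen with earlier results of these data known, so this comparison is not independent of them. When only the canonical TSS of each gene was considered, the counts were 2, 2, 2 and 7 in HL-60, Molm13, OCI-AML3 and K562, beside 41.0%, 49.9%, 54.0% and 52.1% of all genes. EPOR then joined the genes with a peak in K562 and in no other line, which made 5 (4.38% of all genes), and TFRC and SLC25A37 remained in all 4 lines (37.4%).

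**Figure D1:**
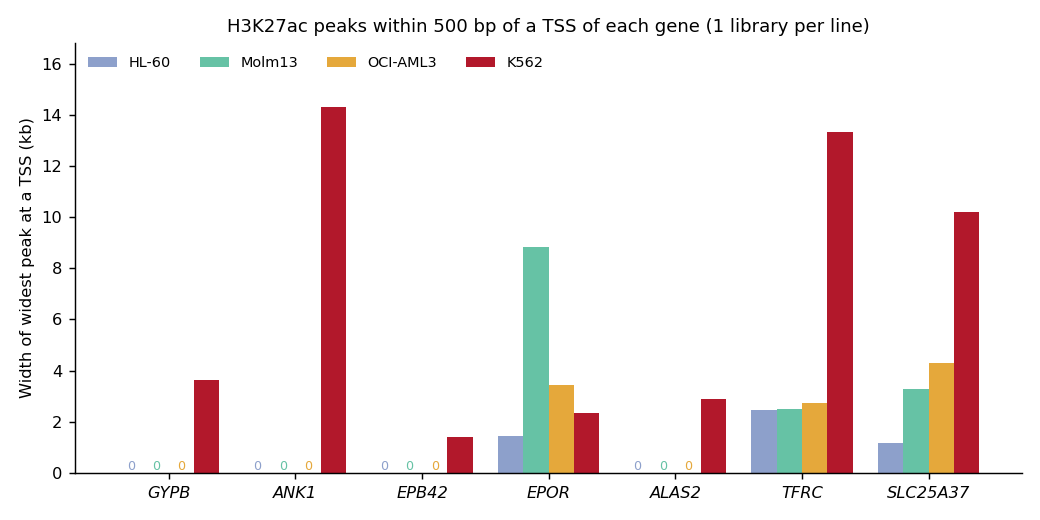
Width in kb of the widest H3K27ac peak within 500 bp of any TSS of each gene, 1 bar per cell line, with 0 where the list holds no such peak. GYPB, ANK1, EPB42 and ALAS2 have a bar in K562 alone, and the K562 bars of ANK1 (14307 bp), TFRC (13339 bp) and SLC25A37 (10201 bp) are the tallest.

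GYPB lies at chr4:143996104-144019380 (hg38, minus strand), beside the other glycophorin genes. No peak was listed within 50 kb of it in HL-60, Molm13 or OCI-AML3, and the nearest ones lay 238341, 217507 and 351471 bp from its start. In K562, 7 peaks covered 15795 bp, or 12.8% of the window, more than at 81.6% of protein-coding genes. The GYPB locus was thus without any listed acetylation in the AML lines and widely acetylated in K562.

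The K562 peak at the GYPB start was 3616 bp wide with a fold enrichment of 4.02, which exceeded 90.0% of the K562 peaks. It began 166 bp inside the gene, so the start itself was not covered. A wider peak of 7766 bp (fold 3.84) lay further along the gene, from 12472 bp after the start, and peaks covered 51.1% of the gene body. Neither peak overlapped a peak of another line. Upstream lay peaks of 496, 2421 and 224 bp, at 1536, 30349 and 37229 bp from the start.

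GYPB has close copies, and reads that mapped to several places were removed by the authors. Over the 500 bp on each side of the start, GYPB shared 90.6% of aligned bases with GYPE. Of the stretches of 75 bases in the GYPB window, 20.7% occurred more than once in hg38, and in the kilobase around the start 35.5% did. Over the sequence under the K562 peaks of this window the share was 16.9%. In the kilobase around the canonical start of the other 6 genes it was 0. The position and width of the GYPB peaks are therefore uncertain where copies share sequence, and GYPE also carried a TSS peak in K562 and in no other line.

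ANK1 lies at chr8:41653220-41896741 (minus strand) and has starts spread over the gene, of which the canonical one is at 41797622. HL-60 had no peak within 50 kb, and its nearest peak lay 218861 bp from the canonical start. Molm13 had 5 peaks covering 1.22% of the window and OCI-AML3 had 3 covering 0.781%, none of them at a start. K562 had 13 peaks covering 13.1%. ANK1 was therefore acetylated in 3 of 4 lines, but at a start in K562 alone.

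The K562 peak at the canonical start of ANK1 was 14307 bp wide, wider than 99.5% of the K562 peaks, with a fold enrichment of 4.10. A second domain of 16891 bp (fold 4.38), wider than 99.7% of the K562 peaks, lay in an intron of the longest transcripts, 14821 bp upstream of the canonical start. Of 13 distinct starts, 2 had a peak in K562, the canonical one and one 29 bp from it. The starts at the far 5′ end and those of the short 3′ transcripts had none in any line.

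The peaks of the AML lines at ANK1 were far narrower than the domains of K562, and the strongest of them lay where K562 had these domains. Within their own lists they were not all narrow, since a 1595-bp Molm13 peak was wider than 65.8% of the Molm13 peaks. In Molm13, a 796-bp peak (fold 5.79) and a 873-bp peak (fold 4.66) lay 30551 bp upstream and 5137 bp downstream of the canonical start. In OCI-AML3, a 1017-bp peak (fold 3.43) and a 1259-bp peak (fold 2.78) overlapped these same positions. The upstream pair fell in the 16891-bp domain of K562 and the downstream pair in the 14307-bp domain. Of the other 4 peaks, 3 overlapped a K562 peak, and a 276-bp Molm13 peak (fold 4.33) did not.

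EPB42, at chr15:43197227-43221018 (minus strand), had the narrowest TSS peak of the 7 genes in K562. It was 1402 bp wide, close to the median of the list, with a fold enrichment of 3.03, and it ended 68 bp upstream of the canonical start. No peak touched the gene body in any line. The nearest peaks in HL-60, Molm13 and OCI-AML3 lay 18517, 15789 and 15822 bp upstream, at a start of the neighbouring gene TGM5, and were 543, 4617 and 4156 bp wide. K562 had no peak there, and its only other upstream peak (1066 bp, fold 2.96) lay 9299 bp from the EPB42 start.

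Peaks covered 7.61% of the window around EPB42 in K562, against 2.03%, 6.97% and 7.42% in HL-60, Molm13 and OCI-AML3. The values of K562, Molm13 and OCI-AML3 are close, and they came from different places. Their order was not stable. With lists of equal length, peaks covered 7001 bp in K562, less than the 8083 and 9190 bp in Molm13 and OCI-AML3. Peaks at the TGM5 start named above and further upstream of EPB42 made up most of the cover in Molm13 and OCI-AML3. In K562 the widest was a 4533-bp peak at CCNDBP1, 32919 bp downstream of the EPB42 start. Among these 3 lines the difference at EPB42 was therefore in the position of the peaks more than in their summed length, and HL-60 had the least cover.

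**Figure D2:**
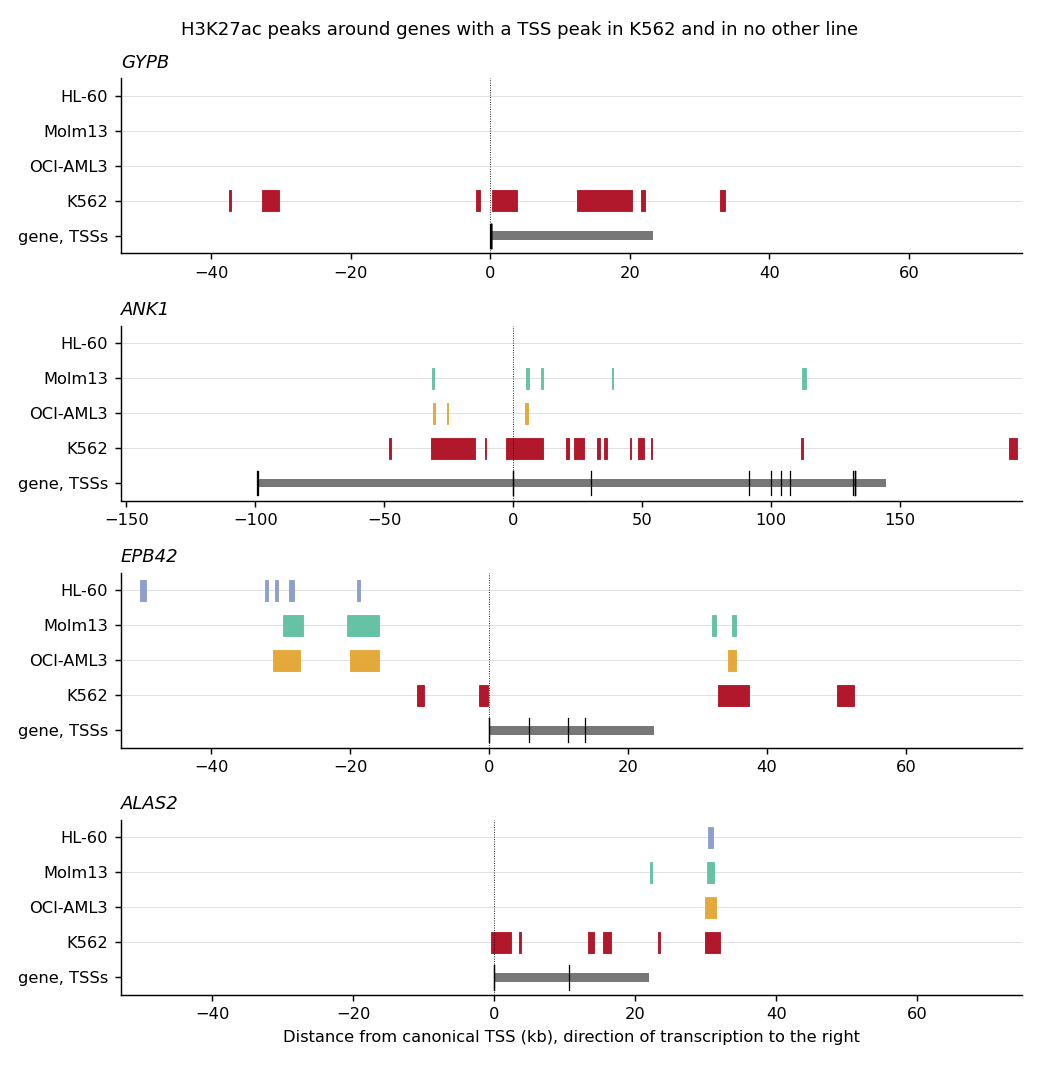
Peaks of each line around GYPB, ANK1, EPB42 and ALAS2, drawn to scale by distance in kb from the canonical TSS (dotted line), with the gene body as a grey bar and annotated TSSs as black ticks. A peak at the dotted line is present in K562 alone. The strongest Molm13 and OCI-AML3 peaks of ANK1 stand above the 14307-bp and 16891-bp domains of K562.

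ALAS2, at chrX:55009055-55030977 (minus strand), had a 2884-bp TSS peak in K562 with a fold enrichment of 3.05, spanning -454 to 2429 bp around the canonical start. Within the gene body, 3 further K562 peaks of 261, 851 and 1200 bp were listed, 3542, 13354 and 15420 bp after the start. The shortest of these, in an intron, had a fold enrichment of 3.07, as high as that of the TSS peak. The K562 peaks covered 21.6% of the gene body.

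In HL-60, Molm13 and OCI-AML3 the ALAS2 gene body held no peak. Each line had a peak at the neighbouring gene APEX2, of 697, 1041, 1534 and 2054 bp in HL-60, Molm13, OCI-AML3 and K562, so this neighbour was marked in every line. Molm13 had 1 further peak of 361 bp (fold 4.13) just beyond the 3′ end of ALAS2, 22049 bp from its start. The window was covered to 0.572%, 1.15%, 1.26% and 6.19% in the same order. Acetylation of ALAS2 itself was thus listed in K562 alone.

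EPOR, at chr19:11377207-11384342 (minus strand), had a TSS peak in all 4 lines, but not at the same start. In K562 a 2337-bp peak (fold 3.78) covered the canonical start at 11384314, reaching from -793 to 1543 bp around it, and 5 of the 6 distinct starts had a peak. In HL-60 and Molm13 the peak lay at an internal start, that of a retained-intron transcript 3076 bp from the canonical one. These peaks were 1434 bp wide with a fold of 4.16 in HL-60 and 8852 bp wide with a fold of 6.16 in Molm13, and they ended 2092 and 1694 bp short of the canonical start. The OCI-AML3 peak was 3446 bp wide with a fold of 3.38, ended 633 bp short, and also reached another internal start 860 bp from the canonical one.

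The K562 peak did not reach the internal start that was marked in the other 3 lines. The K562 and OCI-AML3 peaks overlapped each other, while the K562 peak overlapped neither the HL-60 nor the Molm13 peak. The Molm13 peak ran on past the 3′ end of EPOR to the start of SWSAP1, which had a separate peak in the other lines. Over the whole window, K562 was not the highest line, since cover was 9.45% there and 3.86%, 19.0% and 14.5% in HL-60, Molm13 and OCI-AML3. Much of this cover belonged to peaks at neighbouring starts, of which there were 5 in K562 and 2, 4 and 5 in the AML lines.

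TFRC, at chr3:196012511-196082153 (minus strand), had a peak over its canonical start in every line. This peak was 13339 bp wide in K562, against 2468, 2390 and 2734 bp in HL-60, Molm13 and OCI-AML3. Its fold enrichment of 3.99 in K562 exceeded 89.3% of the list, and those of 6.48, 6.47 and 4.20 in the AML lines exceeded 89.5%, 84.2% and 84.4% of theirs. The peak was therefore strong for its list in all 4 lines, with nearly the same rank, and differed in width. In K562 it was wider than 99.4% of the peaks and ran 12034 bp into the gene.

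In K562, 2 more peaks of 8677 and 3618 bp followed along TFRC, and peaks covered 36.3% of the gene body, against 2.21%, 6.49% and 5.10% in HL-60, Molm13 and OCI-AML3. Of 21 distinct TFRC starts, many of them retained-intron transcripts, 8, 10, 10 and 20 had a peak in HL-60, Molm13, OCI-AML3 and K562. The HL-60 peaks were confined to the starts at the 5′ end. Molm13 had 1 internal peak (2518 bp) and OCI-AML3 had 2 (1124 and 555 bp), and each overlapped a K562 peak.

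The region upstream of TFRC was marked at different places. A place marked in all 3 AML lines had a 493-bp peak (fold 3.55) in HL-60, 14368 bp upstream, a 3349-bp peak (fold 6.27) in Molm13 and a 4197-bp peak (fold 4.00) in OCI-AML3, and K562 had none there. K562 had a 4236-bp peak (fold 3.51) 24930 bp upstream and a 3849-bp peak (fold 4.52) 43547 bp upstream, and neither overlapped a peak of another line. The latter had a fold enrichment above 96.6% of the K562 peaks. Between these, a 2581-bp K562 peak 39596 bp from the start overlapped peaks of Molm13 and OCI-AML3.

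SLC25A37, at chr8:23528956-23575463 (plus strand), also had a peak at its canonical start in every line. It was 10201 bp wide in K562 (fold 3.88), against 1151, 2647 and 2485 bp in HL-60, Molm13 and OCI-AML3 (fold 5.55, 5.49 and 3.41). A second peak marked the internal starts, of which one lies 12606 bp along the gene, in all 4 lines. It was 6256 bp wide in K562 and 253, 3269 and 4287 bp in the AML lines. In OCI-AML3 this internal peak had a fold enrichment of 4.31, higher than the peak at the canonical start. The same 8 of 10 distinct starts had a peak in each line, so the lines differed at SLC25A37 in the extent of the mark and not in the starts it reached.

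Around SLC25A37, K562 had the largest cover of any window, 35.2%, more than at 99.1% of protein-coding genes. The cover was 0.958%, 6.51% and 8.08% in HL-60, Molm13 and OCI-AML3. The K562 peaks included domains of 6732 bp (fold 4.17) and 7294 bp (fold 4.10) upstream, 17490 and 9027 bp from the start, and one of 9296 bp (fold 2.93) in an intron. Molm13 and OCI-AML3 each had 4 upstream peaks, at most 801 and 1062 bp wide, and each of these 8 overlapped a K562 peak. At the furthest of these places the K562 peak was 265 bp wide, and at the others it was part of a domain of at least 7294 bp. HL-60 had no upstream peak.

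**Figure D3:**
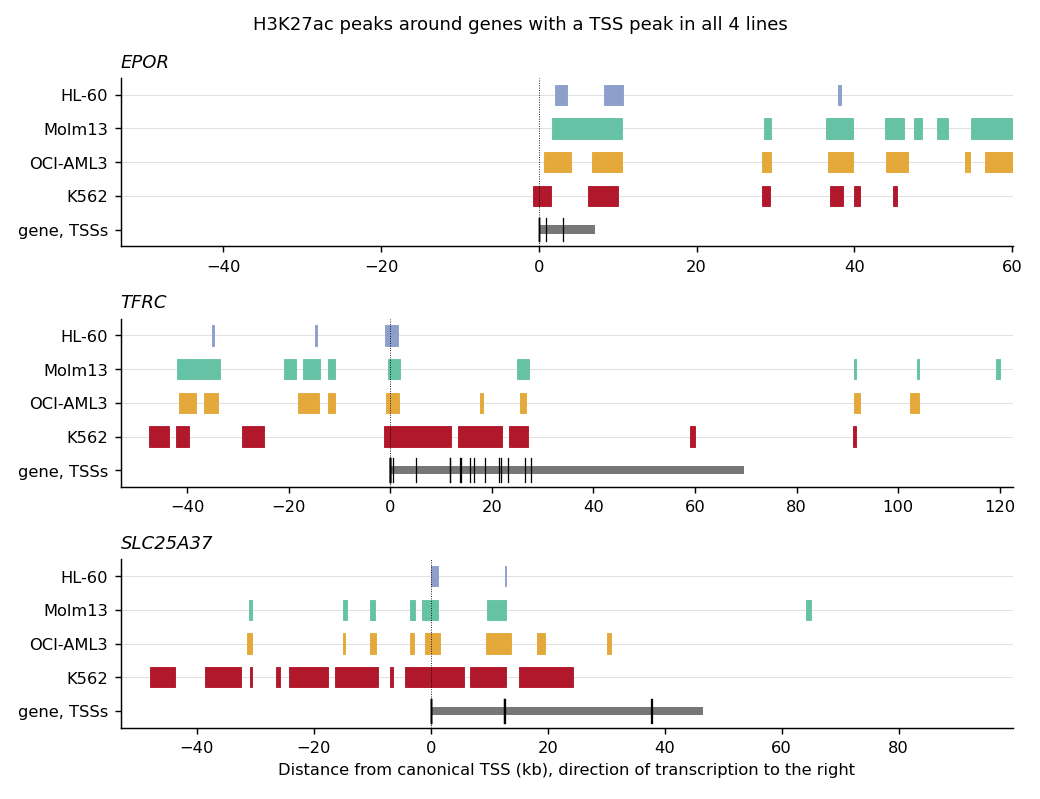
Peaks of each line around EPOR, TFRC and SLC25A37, drawn as distance in kb from the canonical TSS (dotted line), with the gene body as a grey bar and annotated TSSs as black ticks. At EPOR the peak on the dotted line is that of K562 alone, while at TFRC and SLC25A37 peaks of all 4 lines lie at the dotted line and the K562 peak there is the widest.

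The 7 genes fell into wide and ordinary TSS peaks in K562. A TSS peak of at least 10 kb was found at ANK1, TFRC and SLC25A37, 3 of 7 genes, and at 2.45% of all protein-coding genes in K562. The other K562 TSS peaks were 3616, 2884, 2337 and 1402 bp wide at GYPB, ALAS2, EPOR and EPB42, around the median of 2850 bp for the 11199 protein-coding genes with a TSS peak in K562. The median over all genes with a TSS peak was 1343, 1923 and 2140 bp in HL-60, Molm13 and OCI-AML3, so K562 peaks at starts were wider in general. By fold enrichment the K562 TSS peaks ranked above between 60.3% (EPB42) and 91.3% (ANK1) of the list.

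Over the 7 windows together, HL-60 had 14 peaks, Molm13 34, OCI-AML3 31 and K562 54. They covered 12128, 65635, 59690 and 177031 bp, which is 1.07%, 5.78%, 5.26% and 15.6% of the windows. In K562, 10 of the 54 peaks lay at a start of one of the 7 genes, 12 at a start of another gene and 32 at no annotated start. Of these 32 distal peaks, 26 (81.2%) overlapped no peak of another line, and among all distal peaks of K562 74.5% did not. The share near these genes was thus close to that of the whole list. In Molm13 7 of 19 distal peaks (36.8%) overlapped no other line, beside 38.5% of its list. In OCI-AML3 2 of 16 did not (12.5%, beside 40.9%), and in HL-60 1 of 5 did not, beside 51.0% of its list.

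**Figure D4:**
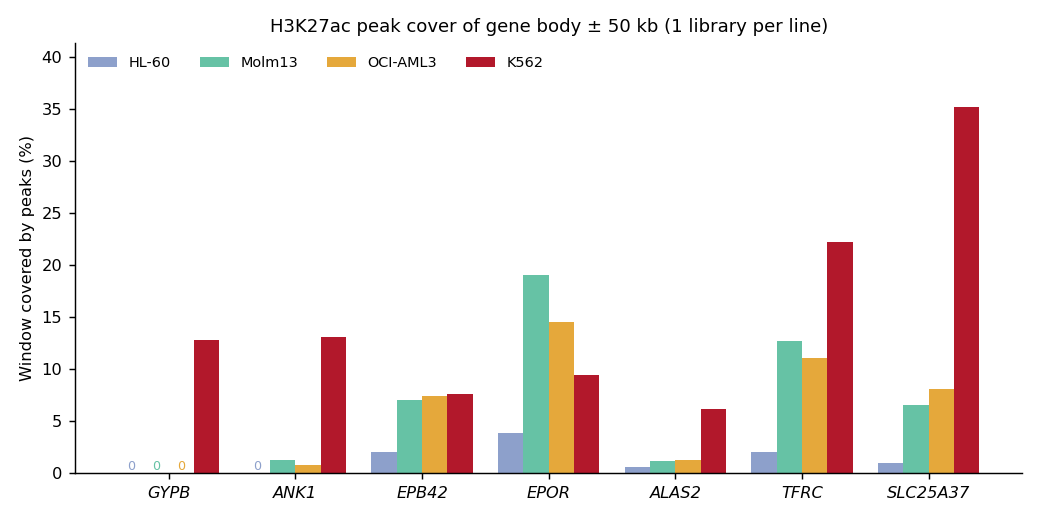
Percentage of the gene body with 50 kb on each side that is covered by H3K27ac peaks, 1 bar per cell line. K562 has the highest bar at every gene except EPOR, from 6.19% at ALAS2 to 35.2% at SLC25A37, and at EPB42 its bar of 7.61% is close to those of Molm13 and OCI-AML3.

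The peaks at and around the genes also differed in sequence. Matches to the GATA letters given above occurred at 2.01 per kb in all K562 peaks, and at 1.93 per kb in the 42 K562 peaks that lay at a start of one of the 7 genes or at no annotated start. The density was 3.83 per kb at ALAS2, 3.74 at GYPB and 2.84 at EPB42. It was 1.83 at TFRC, 1.60 at ANK1, 1.39 at SLC25A37 and 0.428 at EPOR, where a single match lay in 2337 bp. Taken over all 7 genes the density was close to that of the list. The list also holds peaks at starts of other genes, which were left out here, so the sets are unlike. The density was highest at 3 genes whose starts were marked in K562 and in no other line. It was lower at ANK1, the other such gene, whose peaks spanned 45579 bp. The EPB42 value rests on 7 matches in 2468 bp, and base composition was not taken into account. Counted in the same way, the 7 genes had 1.11, 0.959 and 1.19 per kb in HL-60, Molm13 and OCI-AML3, beside 1.39, 1.64 and 1.78 in all peaks. The only genes above their list there were TFRC in HL-60 (2.07) and EPB42 in OCI-AML3 (2.31), where the EPB42 start had no peak.

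The other genes of these pathways were counted in the same way, from lists drawn up with earlier results of these data known. Of 27 other genes of the membrane and its skeleton, 25 had a TSS peak in K562 (92.6%), against 11, 12 and 13 in HL-60, Molm13 and OCI-AML3 (40.7%, 44.4% and 48.1%), and the background shares were those given above. In K562 and in no other line 12 of the 27 had one, beside 4.78% of all genes. GYPB, ANK1 and EPB42 thus had the pattern of these 12 genes.

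These 12 included the glycophorin gene GYPE (4662 bp, fold 4.34) and the spectrin gene SPTB (1736 bp, fold 2.97). They also included the Rh complex genes RHAG (12180 bp, fold 5.57) and RHD (14248 bp, fold 3.73). RHD has a close copy, RHCE, so reads of the pair may not be fully separated. RHCE had a TSS peak in all 4 lines, but at its canonical start in K562 alone. The skeleton genes ADD2, DMTN and TMOD1 (1114, 5542 and 5516 bp) and the surface genes KEL, AQP1 and ACKR1 (1497, 2624 and 224 bp) were also among them. SLC4A1, the anion exchanger to which ANK1 and EPB42 bind, had no TSS peak in any line, and neither had BCAM.

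The heme synthesis list held 8 genes other than ALAS2. All 8 had a TSS peak in both K562 and OCI-AML3, while Molm13 had one at 7 of them and HL-60 at 5. Over all protein-coding genes the shares were 55.9%, 57.7%, 53.9% and 44.7% in this order of lines. None of the 8 was marked in K562 alone, beside 4.78% of all genes, so a count of 0 is near the background. ALAS1, the enzyme of the same step in other tissues, was marked in all 4 lines, with a width of 1193 bp in K562 and of 1075, 8658 and 9779 bp in HL-60, Molm13 and OCI-AML3. FECH, which inserts the iron, had a 7076-bp peak in K562, a 614-bp peak in OCI-AML3 and none in the other two lines.

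Among 19 other genes of iron and heme transport, 11, 14, 15 and 16 had a TSS peak in HL-60, Molm13, OCI-AML3 and K562, beside 44.7%, 53.9%, 57.7% and 55.9% of all genes. In K562 and in no other line 2 had one, beside 4.78% of all genes, namely ABCB6 (2401 bp, fold 3.88), a transporter, and SLC40A1 (9311 bp, fold 4.64), the iron exporter ferroportin. ABCB10, a mitochondrial partner of mitoferrin, went the other way, with peaks of 287, 4540 and 5031 bp in HL-60, Molm13 and OCI-AML3 and none in K562. In all 4 lines 10 of the 19 were marked, as TFRC and SLC25A37 were, beside 40.5% of all genes. Among 13 other genes of erythropoietin signalling the counts were 7, 12, 13 and 12, with none in K562 alone, beside the same background shares. RHEX, a regulator of that signalling in red cell precursors, had peaks of 5237, 7157 and 1407 bp in the 3 AML lines and none in K562. These peaks lay at other annotated starts, and no line had a peak at the canonical start of RHEX.

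The median width of the widest TSS peak in K562 was 6232 bp in the membrane list, 4125 bp in the heme synthesis list, 4254 bp in the iron list and 5193 bp in the erythropoietin list. All 4 medians lay above that of all genes with a TSS peak, 2850 bp. In HL-60 the same medians were 1993, 1240, 950.0 and 2313 bp beside 1343 bp. The number of lists above the median of all genes was 4 in K562, against 2, 3 and 1 in HL-60, Molm13 and OCI-AML3.

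**Figure D5:**
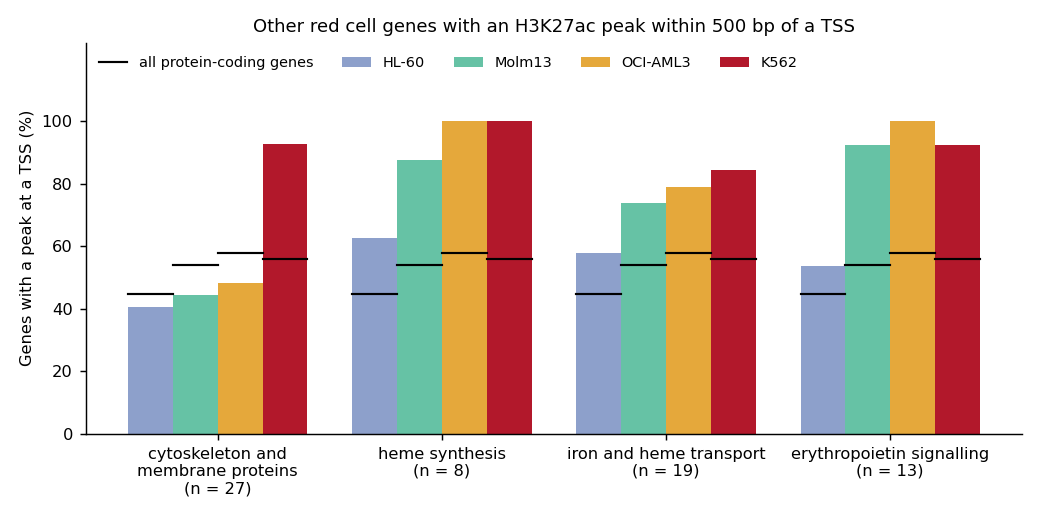
Percentage of the other genes of 4 pathway lists with a TSS peak, 1 bar per cell line, with a black line at the percentage over all protein-coding genes in the same line. The membrane list stands at 92.6% in K562 and below the line in HL-60, Molm13 and OCI-AML3, while the other 3 lists stand above the line in every cell line.

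Genes with the most similar TSS pattern were found by the distance over 8 values, the ranks in percent of the widest and of the strongest TSS peak within each of the 4 lists. ANK1 was nearest to KCNH2 (distance 0.197), which had a 13451-bp peak with a fold of 4.09 in K562, and to GRAP2 (0.398), with 20313 bp and a fold of 4.11. GYPB was nearest to TMEM74B (0.794, 3723 bp and fold 4.01 in K562), and 2 genes tied for the next place. EPB42 was nearest to CCDC27 (2.25) and EYA2 (2.44), and ALAS2 to HPN (1.10) and IL20RB (2.16). None of these had a TSS peak in an AML line, which follows from the choice by distance, since it favours genes without such a peak.

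For the genes without a TSS peak in the AML lines 6 of the 8 values are 0 by definition, so their distances cannot be compared with those of the other members. TFRC was nearest to PPP1R14B (7.21), whose TSS peaks were also widest in K562 (8511 bp, against 2560, 2833 and 2814 bp in HL-60, Molm13 and OCI-AML3), and to TRMO (8.96). SLC25A37 was nearest to ATP2A2 (11.9) and LIN54 (12.5). EPOR was nearest to BABAM1 and ENSG00000269307, which had the same values, at a distance of 16.2. BABAM1 had TSS peaks of 1369, 3281, 2779 and 2283 bp in the same order of lines.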

How the data were processed

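H3K27ac ChIP-seq peak lists of HL-60, Molm13, OCI-AML3 and K562 (1 library per line) were used, of 19 samples in the series. Immunoprecipitation used 15.0 µg of sonicated chromatin (200 to 700 bp) per 2.5 µg of antibody. The authors trimmed reads (Trim Galore 0.4.5), aligned them to hg38 (Bowtie2 2.3.4), kept uniquely mapped reads and called broad peaks (MACS2 2.1.1, q 0.05), with versions per the submitters' processing notes. The control library and any duplicate removal are not given in the sources used here. The lists reach q-values of 0.0995.

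The deposited files give each peak's fold enrichment (a ratio over local background), its −log10 p-value and −log10 q-value, and a score that is 10 times the latter. The fold is the mean over a broad region in the authors' peak caller, so wide peaks may have lower values. A deposited dCas9 list from K562 cells with LTR2B guides held no peak within 50 kb of any member.

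Peaks were assigned to GENCODE v44 TSSs (500 bp) and to gene bodies with 50 kb on each side, using Python 3.11.15, NumPy 2.4.6 and pandas 2.3.3. The assignment was tested on simulated data, where it found 200 of 200 planted calls, and window counts equalled those of bedtools 2.31.1 in 2000 of 2000 windows. Repeats of 75 bases were counted on both strands of hg38. Coordinates are 1-based. Glycophorin starts were aligned with Biopython 1.88.

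All 7 members were named, along with pathway genes having a TSS peak in K562 and in no other line, and the 2 genes nearest to each member, and some of the genes so chosen are not reported here. Other pathway genes in the text (SLC4A1, BCAM, RHCE, ALAS1, FECH, ABCB10 and RHEX) were chosen after their values were seen. Members and lists were chosen with earlier results of these data known. RefSeq promoters are reported for 5 of 7 members, without ANK1 and SLC25A37. With 1 library per line no test was run. Alternatives were the q-value limit, list length, TSS window, choice of TSS, merging of peaks and reach.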

Additional observations from a re-analysis of the deposited data

How the results depend on the processing

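The number of the 7 genes with a TSS peak in K562 and in no other line was 4. It fell to 2 with a stricter q-value limit of 0.001, which removed the EPB42 and ALAS2 peaks, and to 2 when a peak had to cover the TSS base itself, which removed those of GYPB and EPB42. With lists of equal length or peaks within 1 kb merged it was 4. At the canonical TSS alone, the membrane list had 6 genes with a peak in HL-60 in place of 11, and the erythropoietin list 4 in place of 7. Of 614 values recomputed under the alternatives, 542 moved by no more than 1.5 times. This number includes values of 0 that stayed at 0, such as those of GYPB in the AML lines. A stricter limit cannot change such a 0, so the share says little about how stable the other values were. The values that moved further were mostly peak numbers and cover. These moved with the reach around the gene and also with the q-value limit, under which 13 of 28 peak numbers and 4 of 28 cover values moved, and with equal list length, under which 7 and 1 did. Merging gave SLC25A37 a TSS peak of 17364 bp in K562. No paired analysis was possible because each line had 1 library and no test was run. Without counts or inputs in the lists, the depth behind an absent peak is unknown, and copy number was not analysed here.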
